A study of Mus musculus with 2 samples.

Results

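Ifitm1, Ifitm2, Ifitm3 and Bst2 encode membrane proteins with which cells resist enveloped viruses, and their transcripts were followed in sarcoma cells silenced for a circular RNA. The 4 genes were taken by symbol from a count table of 25509 genes, and all 4 were among the 12941 genes retained because either library or both reached 10 counts. The members were selected on their fold changes in these same libraries, Ifitm3 because it was lower after silencing while most other interferon-stimulated genes were higher. Their fold changes are therefore given as a description, with no test.

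The cells were mesenchymal stem cells on a C57BL/6 background that lacked p53 (p53-/-) and overexpressed Ccne1 from a retroviral vector, a mouse model of soft-tissue sarcoma. They had grown as subcutaneous tumors, had been passed to the lungs of further recipient mice and were recovered from the lung foci. The recovered cells were then transduced with a control hairpin (shCTR) or with a hairpin against the backsplice junction of circCsnk1g3 (shcircCsnk1g3). Both groups share the p53 deletion and the Ccne1 vector, and each group is 1 library of poly(A) RNA, so culture-to-culture variation was not measured and no p-value between the groups can be given. The effect of the hairpin cannot be told apart from any other difference between the 2 cultures.

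Interferon-induced transmembrane (IFITM) proteins are short proteins of the CD225 family that sit in the membranes of the cell surface and of endosomes and lysosomes, where they hinder the fusion of a viral envelope with the membrane of the cell. Ifitm3 and Ifitm2 are found mainly in endosomal membranes and Ifitm1 mainly at the cell surface. Bst2 encodes tetherin, which spans the plasma membrane at its amino end, carries a glycosylphosphatidylinositol (GPI) anchor at the other, and holds budding virus particles on the surface of the cell. Type I interferon induces all of them through transcription factors, IRF9 and STAT2 among them, that bind interferon-stimulated response elements (ISRE). Fibroblast-like cells are known to express Ifitm3 without added interferon.

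The 3 Ifitm genes lie within a short stretch of chromosome 7 of GRCm38, in the GENCODE M21 annotation. Ifitm2 (ENSMUSG00000060591) extends from 140954837 to 140955987 on the minus strand, Ifitm1 (ENSMUSG00000025491) from 140967221 to 140969825 on the plus strand, and Ifitm3 (ENSMUSG00000025492) from 141009586 to 141010770 on the minus strand. Ifitm5 and Ifitm6 flank them in the same cluster. Bst2 (ENSMUSG00000046718) lies alone on chromosome 8, from 71534255 to 71537456 on the minus strand. The reference transcripts have 2 exons in Ifitm2 and Ifitm3, 3 in Ifitm1 and 5 in Bst2.

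The region around each annotated start, 250 bases before and 50 after it, was searched on both strands of the RefSeq promoters of GRCm38.p6 for a core ISRE, which is GAAA followed after 2 bases of any kind by GAAA. Of 32851 promoters, 3.4% held such a match. Those of Ifitm2, Ifitm3 and Bst2 are shown here because they held it, with the matches in capitals, all on the minus strand, which is that of the genes.
Ifitm2, chr7:140955988-140956017: ccaccaacagGAAAAGGAAAttgctagaga
Ifitm3, chr7:141010714-141010743: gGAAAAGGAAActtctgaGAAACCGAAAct
Bst2, chr8:71537580-71537609: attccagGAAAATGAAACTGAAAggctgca
The match of Ifitm2 began 46 bases before the RefSeq start, the 2 matches of Ifitm3 began 2 and 19 bases after it, and the 2 of Bst2, which overlap each other, began 130 and 124 bases before it. The core ISRE was not in the window of Ifitm1, whose longest annotated transcript starts further upstream than the window reached. The letters TTCNNNGAA, a gamma-activated site, occurred in 8.3% of all promoters and in those of Ifitm3 and Bst2, with 1 match each that shares bases with the ISRE matches. Of the genes that held the core ISRE, Ifitm2 and Ifitm3 were lower and Bst2 higher in the silenced cells, with the values given further on.

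The IFITM genes are close copies of each other, which bears on how their reads were counted. Over aligned coding bases, Ifitm2 and Ifitm3 were 80.9% identical, Ifitm1 was 82.1% identical to each of them, and Ifitm6 was 69.4% to 70.3% identical to the 3. The longest stretches shared letter for letter lie in the coding part of the first exon of Ifitm2 and Ifitm3. They are shown because reads that fall wholly inside them cannot be assigned to 1 gene, and the capitals mark the 40 bases common to all 3 genes.
Ifitm2 (coding bases 130 to 198, chr7:140955718-140955786) and Ifitm3 (coding bases 133 to 201, chr7:141010445-141010513): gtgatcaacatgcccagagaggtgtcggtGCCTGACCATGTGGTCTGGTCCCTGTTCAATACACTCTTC
Ifitm1 (coding bases 96 to 159, chr7:140968351-140968414) and Ifitm3 (coding bases 162 to 225, chr7:141010421-141010484): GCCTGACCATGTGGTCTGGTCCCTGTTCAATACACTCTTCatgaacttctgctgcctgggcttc
Of all windows of 50 bases in the reference transcript, 5.56% in Ifitm3, 3.30% in Ifitm2 and 1.80% in Ifitm1 also occurred in another Ifitm gene, and none did at 75 bases. Ifitm2 shared 48.5% of its windows of 50 bases and 34.9% of those of 100 bases with any other annotated gene, nearly all of them Gm-named loci that resemble it. Of 7 genes with shared windows other than the members, only Gm7676 is in the count table used here, with 1 count in the shCTR library and 2 in the shcircCsnk1g3 library. Gm7676 shares windows with Ifitm1 and Ifitm3 and not with Ifitm2. The loci that resemble Ifitm2 are not in the count table, so their counts are unknown. Bst2 shared no window. How reads from the shared stretches were assigned was not tested.

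The libraries held 42709996 counts (shCTR) and 38792143 counts (shcircCsnk1g3). Csnk1g3, the host gene of the targeted circRNA, had 2411 and 2159 counts, a log2 fold change of -0.05 (-0.14 to 0.03). Poly(A) libraries count its linear transcript, so these values do not show how far the circRNA was depleted. Of 10 mesenchymal markers, 9 were retained, collagen genes and Pdgfra among them. Of 16 leukocyte markers, 13 had at most 3 counts in both libraries. Summed, the 16 came to 4.0 CPM (the count scaled to the TMM-adjusted library total) in the control and 2.52 CPM in the silenced cells, most of it from Cd68, which had 155 and 87 counts. Whether other cells took part in any result was not tested. Bst2 marks plasmacytoid dendritic cells, and of 6 markers of these cells Siglech, Ly6d and Bcl11a were at 0 in both libraries and only Tcf4, which mesenchymal cells also express, was above 3 counts. The 6 endothelial markers summed to 0.69 CPM in the control and 0.48 CPM in the silenced cells, and the 7 lung epithelial markers to 0.14 and 0.03 CPM.

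After silencing of circCsnk1g3, all 3 Ifitm transcripts were lower and Bst2 was higher. In bulk RNA, fewer cells that express a gene and less RNA per cell cannot be told apart. Each log2 fold change is that of CPM with a prior count of 2, shcircCsnk1g3 over shCTR. The range after it is a 95% interval for the ratio of the counts by the exact method of Clopper and Pearson, which covers counting error only. Ifitm3, the best known inhibitor of influenza virus entry in the family, had 21128 counts in the shCTR library and 13918 in the shcircCsnk1g3 library, which is 500.1 and 354.9 CPM. The silenced cells thus held 1.41-fold less, a log2 fold change of -0.49 (-0.53 to -0.46). Of the 10662 genes whose counts summed to 200 or more over both libraries, 461 (4.32%) had a lower log2 fold change.

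Ifitm1, which acts at the cell surface, had 339 counts in the shCTR library and 134 in the shcircCsnk1g3 library, or 8.02 and 3.42 CPM. This was the largest difference among the members, 2.35-fold less after silencing, with a log2 fold change of -1.22 (-1.53 to -0.94). Only 45 (0.422%) of the 10662 genes were lower still. Ifitm2, the endosomal relative of Ifitm3, had 9277 and 7245 counts, or 219.6 and 184.8 CPM, a log2 fold change of -0.25 (-0.29 to -0.20), and 1421 genes (13.3%) were lower. The intervals of the 3 log2 fold changes did not overlap each other, with Ifitm1 lowest and Ifitm2 nearest to 0.

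Bst2 had 1363 counts in the shCTR library and 1906 in the shcircCsnk1g3 library, or 32.3 and 48.6 CPM. Tetherin mRNA was therefore 1.51-fold higher, a log2 fold change of 0.59 (0.49 to 0.69), and 206 (1.93%) of the 10662 genes were higher still.

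**Figure D1:**
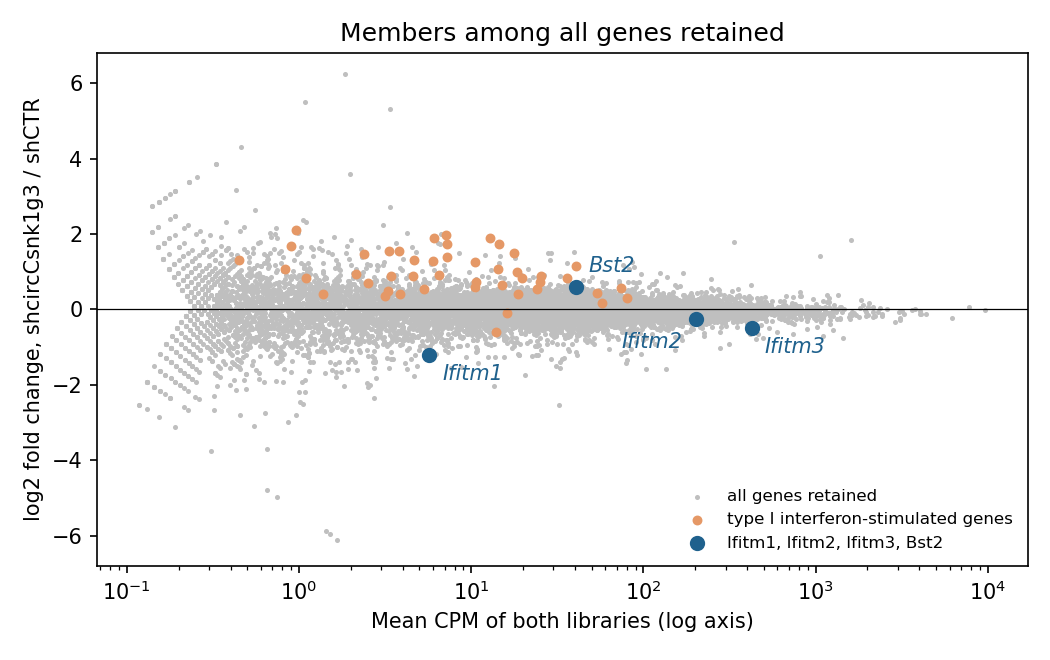
Mean CPM of both libraries (log axis) against the log2 fold change of shcircCsnk1g3 over shCTR, for the 12941 genes retained (grey), the type I interferon-stimulated genes (orange) and the 4 members (blue). Bst2 at 0.59 sits among the orange points, whereas Ifitm2 (-0.25), Ifitm3 (-0.49) and Ifitm1 (-1.22) lie below 0.

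At a threshold of 2-fold, 1 member of 4, Ifitm1, was past it in the lower direction, beside 2.55% of all genes retained, and 0 of 4 in the higher direction, beside 2.13%. The counting interval lay below 0 for 3 of 4 members, beside 28.2% of all genes retained, and above 0 for 1 of 4, beside 26.9%. In all, 55.1% of the genes retained had an interval that left out 0, so an interval of this kind sets the 2 libraries apart and says little on the conditions.

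Per length of the reference transcript, the order of the 4 members was the same in both libraries. Ifitm3 stood at 1580 TPM (counts divided by length and scaled to a fixed sum, across all genes) in the shCTR library and 1152 in the shcircCsnk1g3 library, which made it the transcript ranked 93 and 134 among all genes. Ifitm2 followed at 718 and 621 TPM, Bst2 at 87.3 and 135 TPM, and Ifitm1 at 19.5 and 8.52 TPM. The level of Ifitm3 thus remained above that of every other member after silencing, and that of Ifitm1 was the lowest in both libraries. For Ifitm1 the level depends on which of its 3 annotated transcripts is taken as the length, since only the longest, of 882 bases, was used.

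**Figure D2:**
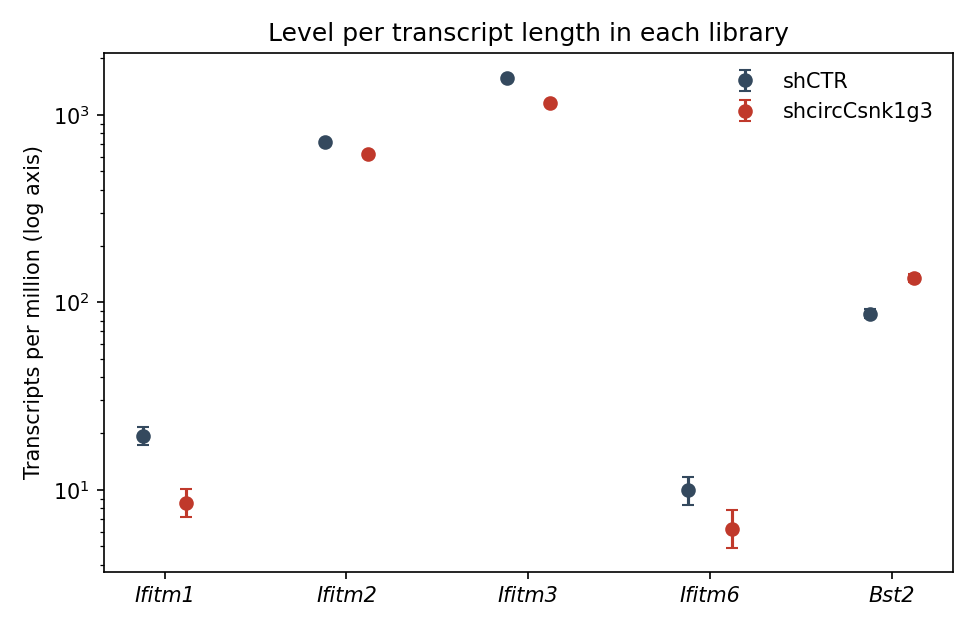
Level of the 4 members and of Ifitm6 in TPM on a log axis, with shCTR in dark blue-grey and shcircCsnk1g3 in red; bars are 95% exact Poisson intervals of the count and are mostly smaller than the points. Ifitm3 is highest in both libraries (1580 and 1152), and Bst2 alone is higher in the shcircCsnk1g3 library (87.3 and 135).

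Ratios of members within a library do not depend on how the libraries were scaled to each other. There were 15.5 counts of Ifitm3 for each count of Bst2 in the shCTR library and 7.30 in the shcircCsnk1g3 library, a log2 difference of -1.09 (-1.19 to -0.98, exact conditional interval). Between the 2 endosomal members the ratio moved less. Ifitm2 had 0.439 counts for each count of Ifitm3 in the control and 0.521 in the silenced cells, a log2 difference of 0.25 (0.19 to 0.30). Ifitm1 lost ground to Ifitm3, from 0.0160 to 0.0096 counts for each count, a log2 difference of -0.74 (-1.04 to -0.44).

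The Ifitm counts summed to 30744 in the shCTR library and 21297 in the shcircCsnk1g3 library, a log2 fold change of -0.42 (-0.45 to -0.40). Ifitm3 made up 68.7% of this sum in the control (95% exact binomial interval 68.2% to 69.2%) and 65.4% in the silenced cells (64.7% to 66.0%). The share of Ifitm2 was 30.2% (29.7% to 30.7%) and 34.0% (33.4% to 34.7%). That of Ifitm1 was 1.10% (0.989% to 1.23%) and 0.629% (0.527% to 0.745%). A different division of shared reads among the 3 genes would change these shares and leave their sum as it is.

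Of 11 other genes of the CD225 family in the count table, 4 were retained. Ifitm6, whose product is best known from myeloid cells, had 133 counts in the shCTR library and 75 in the shcircCsnk1g3 library, a log2 fold change of -0.70 (-1.15 to -0.30), in the direction of its neighbors. Ifitm5, a gene of bone-forming cells, had 16 and 10 counts (-0.49, -1.87 to 0.66), and Ifitm10 had 12 and 6 (-0.72, -2.59 to 0.63). At this depth no difference was detectable for these 2 genes. Prrt2, which encodes a presynaptic protein of neurons, had 19 and 44 counts, a log2 fold change of 1.23 (0.51 to 2.18). Tmem91 had 7 and 6 counts and Tusc5 had 5 and 1, too few to be retained. Ifitm7, Prrt1, Syndig1, Syndig1l and Tmem233 were at 0 in both libraries, where a count of 0 allows up to 3 counts, or 0.0710 CPM in the control and 0.0765 CPM in the silenced cells. Of the 4 family genes retained beside the members, 3 had a value below 0, but only 1, Ifitm6, had its counting interval below 0. Ifitm10 was retained through its count in the shCTR library alone. Prrt2 was the 1 gene with a higher value and the 1 at least 2-fold higher, beside 2.13% of all genes retained.

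The genes around the cluster were compared to see whether they differed in the same way. Within 150 kb of Ifitm1, Ifitm2 or Ifitm3, 11 genes outside the family were retained, of which 5 were higher and 6 were lower, and the median log2 fold change was -0.02 beside 0.00 for all genes retained. Their values ran from -0.27 to 0.34 and none was past 2-fold, beside 2.13% of all genes retained in the higher direction and 2.55% in the lower. Pgghg, the nearest on the Ifitm2 side, had 1120 counts in the shCTR library and 1069 in the shcircCsnk1g3 library, a log2 fold change of 0.04 (-0.08 to 0.16). Beyond Ifitm6, B4galnt4 had 784 and 644 counts (-0.18, -0.33 to -0.02), Pkp3, a desmosome gene, 303 and 233 (-0.27, -0.52 to -0.02), and Sigirr, an inhibitor of interleukin receptor signaling, 1891 and 1562 (-0.17, -0.27 to -0.07). Ric8a was the highest, with 2556 and 2999 counts (0.34, 0.26 to 0.41). Ifitm1, Ifitm3 and Ifitm6 were each lower than all 11 of these genes, and Ifitm2 was higher than Pkp3 only.

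Around Bst2, 15 genes were retained within 150 kb, with 8 higher and 7 lower, a median of 0.03 and a range from -0.27 (Mrpl34) to 0.47 (Unc13a). Mvb12a, the nearest and a subunit of the ESCRT-I complex, had 2585 and 2377 counts (-0.01, -0.09 to 0.07). Plvap on the other side had 86 and 85 counts (0.09, -0.36 to 0.54). The value of Bst2 lay above all 15.

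**Figure D3:**
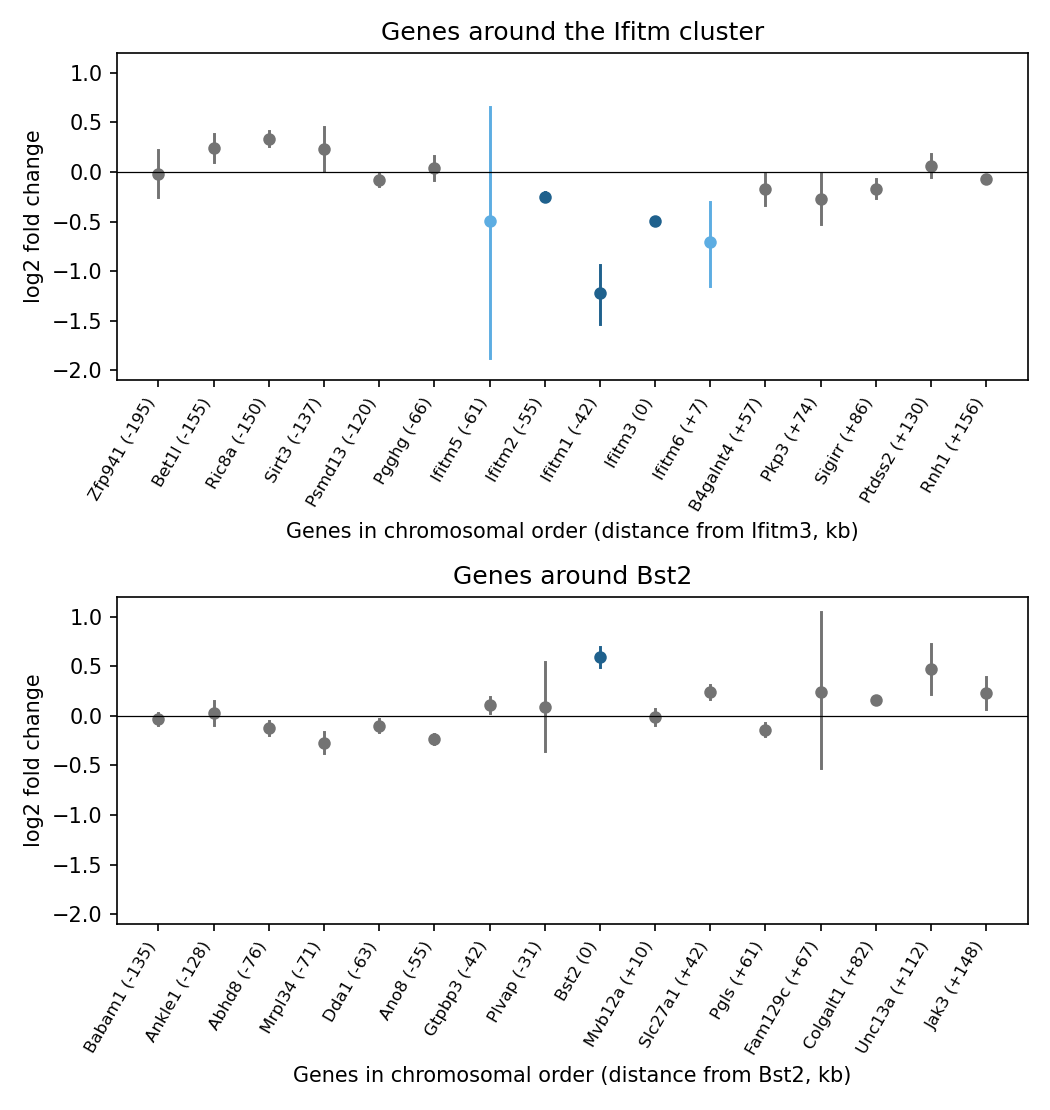
Log2 fold change (shcircCsnk1g3 over shCTR) of the genes retained within 150 kb of an Ifitm member (top) and of Bst2 (bottom), in chromosomal order with the distance in kb after each name; dark blue marks members, light blue other Ifitm genes, grey all others, and lines are 95% counting intervals. The values of the 5 Ifitm genes retained in the cluster are all below 0, although the interval of Ifitm5 reaches above 0. The other 11 run from -0.27 to 0.34, and Bst2 at 0.59 is above its 15 neighbors.

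The members were set beside 46 retained genes of a list of type I interferon-stimulated genes from which they had been left out. The list was chosen with earlier results of these data known, so its counts are a description. Of the 46, 44 were higher and 2 lower in the silenced cells, beside 6521 and 6420 of the 12941 genes retained. At least 2-fold higher were 19, beside 2.13% of all genes retained, and at least 2-fold lower 0, beside 2.55%. The median log2 fold change of the list was 0.88, beside 0.00 for all genes retained. A counting interval above 0 was found for 43 of the list, beside 26.9% of all genes retained. Bst2, at 0.59, had 13 of the 46 below it and 33 above. Ifitm1 was below all 46, and Ifitm2 and Ifitm3 were below all but 1.

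The gene below Ifitm2 and Ifitm3 was Isg20, which encodes an interferon-induced exonuclease, with 710 counts in the shCTR library and 430 in the shcircCsnk1g3 library, a log2 fold change of -0.61 (-0.79 to -0.44). Next above Ifitm2 was Ifit2, with 705 and 613 counts (-0.09, -0.25 to 0.06). At the other end, among listed genes with at least 200 summed counts, Ifi44 had 121 and 447 counts (1.97, 1.70 to 2.29) and Rtp4, whose product assists the transport of receptors to the cell surface, 228 and 791 (1.89, 1.69 to 2.12). Irf9 had 1073 and 2196 counts (1.14, 1.03 to 1.25) and Stat2 had 756 and 1290 (0.88, 0.75 to 1.01), both above the value of Bst2. Of the 36 listed genes with a RefSeq promoter, 17 (47.2%) held the core ISRE in at least 1 of their promoters. This is a share of genes, whereas the 3.4% given above is a share of promoters.

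**Figure D4:**
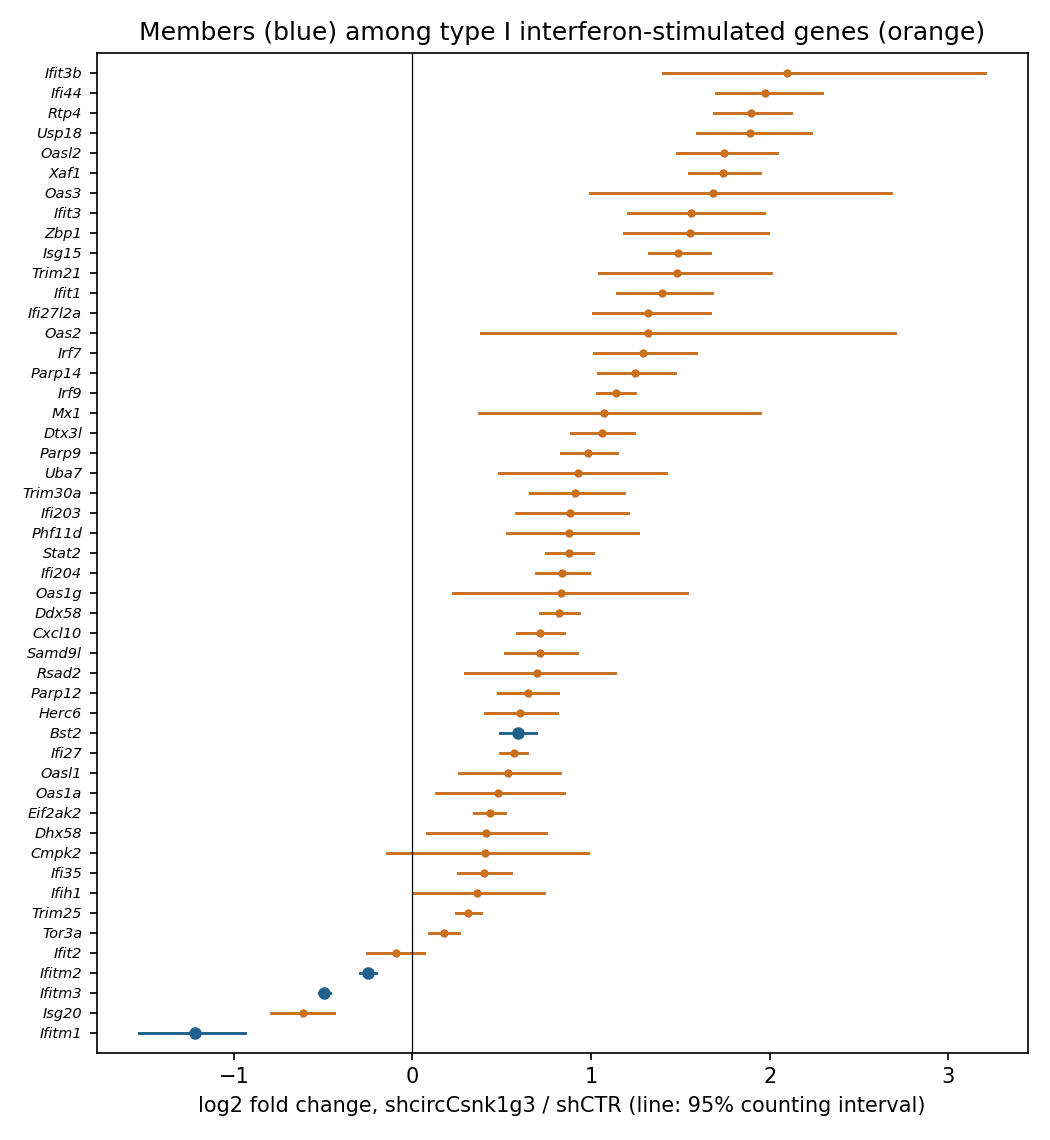
Log2 fold change of shcircCsnk1g3 over shCTR for 45 of the 46 type I interferon-stimulated genes retained (orange) and the 4 members (blue), in order of value, with 95% counting intervals as lines. Ifitm1, Ifitm3 and Ifitm2 are at the lower end together with Isg20 and Ifit2, and Bst2 stands within the orange genes with 33 of them above it.

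Receptors and signaling genes upstream of these genes were set beside them. Of 19 retained genes of interferon receptors and signaling, a list that shares genes such as Irf9, Irf7 and Usp18 with the type I list, 14 were higher and 5 were lower. Their median was 0.16, beside 0.00 for all genes retained, and 3 were at least 2-fold higher, beside 2.13% of all genes retained. Usp18, which shuts off signaling at the interferon receptor, had 108 and 376 counts (1.89, 1.59 to 2.23), and Irf7 had 147 and 336 (1.29, 1.02 to 1.59). The lowest were Socs1, another feedback inhibitor, with 482 and 326 counts (-0.45, -0.66 to -0.25), and Irf2, which can repress ISRE genes, with 1353 and 1122 (-0.16, -0.28 to -0.05).

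Other antiviral proteins of membranes and virus entry went in either direction, with 7 of 13 retained higher and 6 lower around a median of 0.09. At least 2-fold higher were 2, beside 2.13% of all genes retained, and at least 2-fold lower 0, beside 2.55%. Gbp2, a GTPase that binds membranes around pathogens, had 128 and 398 counts (1.73, 1.45 to 2.04), and Rsad2, which encodes viperin, had 81 and 123 (0.70, 0.29 to 1.13). Ly6e, a GPI-anchored protein that hinders the fusion of coronaviruses and is itself interferon-inducible, was abundant like Ifitm3 and was lower, with 41390 and 32485 counts (-0.24, -0.26 to -0.22). March2, a membrane ubiquitin ligase, had 1068 and 842 counts (-0.24, -0.37 to -0.10).

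Enzymes and partners reported for IFITM proteins had 7 of 16 retained genes higher and 9 lower, and a median of -0.01. None was past 2-fold, beside 2.13% of all genes retained in the higher direction and 2.55% in the lower. Nedd4, the ubiquitin ligase that marks IFITM3 for turnover, had 63197 and 49926 counts (-0.23, -0.25 to -0.22), and Vapb, a protein of endoplasmic reticulum contact sites, 4038 and 3041 (-0.30, -0.37 to -0.23). The highest with at least 200 summed counts were Vapa (4509 and 4415 counts, 0.08, 0.02 to 0.14) and Vcp (46892 and 45804 counts, 0.07, 0.05 to 0.09). Among 18 genes of late endosomes and lysosomes, the compartments of Ifitm2 and Ifitm3, 8 were higher and 10 were lower, and their median was -0.04. The lowest were Lipa, the lysosomal acid lipase, with 458 and 323 counts (-0.39, -0.61 to -0.19), and Ctsl, a protease that also primes viral fusion proteins, with 50302 and 40023 counts (-0.22). The highest were Mcoln1, a calcium channel, with 1779 and 1832 counts (0.15, 0.06 to 0.24), and Atp6v0d1, a subunit of the proton pump, with 1940 and 2020 counts (0.17, 0.08 to 0.26). Of 26 housekeeping genes, 7 were higher and 19 were lower. They ran from -0.37 (Gusb) and -0.33 (Actb) to 0.07 (Vcp) and 0.09 (Psmb4), around a median of -0.07. The values of Ifitm1, Ifitm3 and Bst2 lay outside this range and that of Ifitm2 inside it. That is no test, since the members were selected on these values and the range does not measure variation between cultures.

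For each member, the genes with the smallest summed difference in log2 CPM over the 2 libraries were looked up, with no claim on shared function. Those of Ifitm3 were Slc25a5 (19764 and 13947 counts, summed difference 0.099) and Pdia3 (21854 and 13107 counts, 0.135). Those of Ifitm2 were Kansl2 (9183 and 7251 counts, 0.016) and Mtpn (9265 and 7131 counts, 0.025). Ifitm1 was nearest to Syt17 (350 and 135 counts, 0.057) and Cd300lb (357 and 148 counts, 0.218), and Bst2 to Stx2 (1392 and 1892 counts, 0.041) and Klf9 (1372 and 1808 counts, 0.086). Each pair gives the shCTR count first. None of these 8 genes is on the type I list, which holds 46 of the 12941 genes retained, so the absence says little.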

How the data were processed

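RNA-seq of 2 libraries of mouse sarcoma cells was used, 1 per group. The authors made stranded poly(A) libraries, aligned reads to GRCm38 with STAR and deposited RSEM estimated counts per gene as whole numbers, along with a table of TMM-scaled CPM from edgeR for part of the genes. The 92 spike-in rows, all at 0, were left out. Genes with fewer than 10 counts in both libraries were dropped, and TMM factors were taken from edgeR 4.0.16 in R 4.3.3. Log2 fold changes used a prior count of 2. Intervals were computed with scipy 1.17.1 and cover counting error only, since amplification duplicates are not independent molecules. No test between groups was possible with 1 library each. Annotation was GENCODE M21, in which 25251 of 25509 gene identifiers were found; the authors' release is not given in the sources used here. A gene's length is that of its principal transcript. Promoters were from RefSeq. The steps were tested on simulated Poisson counts without variation between cultures, so that check does not bear on such variation.

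The members and all gene lists were chosen with earlier results of these data known. Genes named are the members, the CD225 family, genes within 150 kb, the 2 highest and 2 lowest of each list with at least 200 summed counts, Stat2, Irf9 and the 2 most alike genes per member. Csnk1g3, as the targeted gene, and genes that mark a range, a nearest neighbor or a marker list were named besides. A listed gene is counted in its lists and is not reported by itself here. Alternatives were DESeq2 1.42.0 size factors, total counts, the deposited CPM, a prior count of 0.5 or 10, other count filters, a 1.5-fold threshold and shares per length.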

Additional observations from a re-analysis of the deposited data

How the results depend on the processing

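No paired analysis was possible because each hairpin had 1 library, and for the same reason no replicate could be left out. The direction of all 4 members held under the 7 alternatives, with ranges of -1.23 to -1.17 for Ifitm1, -0.25 to -0.22 for Ifitm2, -0.50 to -0.46 for Ifitm3 and 0.59 to 0.62 for Bst2. The log2 fold change of Ifitm3 left its narrow counting interval with total counts only, at -0.46, where the median of all genes shifted to 0.03. The median of the type I list ranged from 0.84 to 0.91. The numbers of genes at least 2-fold higher and lower, 275 and 330, became 150 and 171 with a prior count of 10, 107 and 168 in the deposited table, 732 and 623 with no count filter, 60 and 79 with at least 200 summed counts, and 698 and 817 at 1.5-fold. These settings test fewer or more genes, shrink low counts or lower the threshold by construction. Per kilobase, the share of Ifitm3 was 68.2% in the control and 64.7% in the silenced cells, which moves it out of the counting interval by construction through the lengths. With 26 counts for Ifitm5 and 18 for Ifitm10 over both libraries, depth left their intervals on both sides of 0.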

Other observations

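Ly6a, which encodes the GPI-anchored surface antigen Sca-1 by which the parent mesenchymal cells had been sorted and which interferon is known to induce, was the lowest of the mesenchymal markers. It had 3223 counts in the shCTR library and 1854 in the shcircCsnk1g3 library, a log2 fold change of -0.69 (-0.77 to -0.61). Pdgfra, the other sorting marker, had 13824 and 10344 counts (-0.31, -0.35 to -0.27), while Col3a1 (49831 and 59725 counts, 0.37, 0.35 to 0.39) and Col1a2 (71642 and 78250 counts, 0.23, 0.22 to 0.25) were higher. Over the 9 mesenchymal markers retained, 3 were higher and 6 were lower, around a median of -0.10.

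Among 8 retained genes of GPI anchor synthesis and attachment, on which the anchor of tetherin depends, 2 were higher and 6 were lower, around a median of -0.14. Pigt, a subunit of the transamidase that attaches the anchor, was the lowest, with 4837 and 1783 counts and a log2 fold change of -1.33 (-1.41 to -1.25). It was the only 1 past 2-fold, beside 2.55% of all genes retained in that direction. Pgap1, an enzyme that remodels the anchor, was next, with 138 and 98 counts (-0.38). Pigl, an enzyme of anchor synthesis, was the highest, with 597 and 831 counts (0.58, 0.43 to 0.74), followed by Piga with 1028 and 1107 counts (0.21, 0.09 to 0.34).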
